A study of Mus musculus with 4 samples.

Results

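The 45 genes described here build the entry and transport machinery of the early secretory pathway, and were taken by symbol from a list of subunits of the endoplasmic reticulum (ER) translocon, the signal recognition particle (SRP) and the COPI and COPII coats. Every peak whose assigned gene carried 1 of these symbols was used, and the rule used no measured value. The NFIC peak list of the mouse pancreas held 15824 peaks assigned to 9086 genes, and 25 of these peaks were assigned to 20 of the 45 genes. The other 25 genes had no assigned peak. NFIC was mapped by ChIP-Seq, which recovers and sequences the DNA bound by a protein, in pancreas of wild-type mice of mixed strain aged 8 to 12 weeks, with the A303-123A antibody from Bethyl. The samples comprised 3 libraries of NFIC-bound DNA and 1 library of input DNA, that is, sonicated chromatin before precipitation. No gene was altered and no agent was given in these groups. All peaks came as 1 merged list with 0 columns for a single library, so no value here has a replicate error, the depth per library is unknown, and the comparisons below are counts with 95% Wilson intervals that cover counting error only. The list carries no expression values, so the cell types behind the peaks of this whole-tissue sample could not be checked against markers.

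Proteins destined for secretion are recognised as they leave the ribosome by the SRP, which docks at its receptor on the ER membrane and hands the nascent chain to the Sec61 channel. Signal peptidase removes the signal peptide, and folded cargo leaves the ER in vesicles coated by COPII, while COPI vesicles return escaped ER residents that the KDEL receptors recognise. Pancreatic acinar cells, which make and export the digestive enzymes, carry one of the heaviest secretory loads of any cell. NFIC belongs to the nuclear factor I (NFI) family, whose dimers bind a palindrome with a TGGC arm and a GCCA arm separated by a 5-base spacer.

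The strongest site in the set lay far upstream of *Srp14* and held the NFI palindrome with no mismatch. Of the 8 peaks within 1000 bp of a gene start, 2 held the palindrome with at most 1 mismatch, at *Sec24d* and *Sec61a2*. The GC box GGGCGG lay in 6 of these 8 peaks. Stretches that carry these patterns are shown here on the strand of the named gene, 5′ to 3′, read from GRCm38 (mm10) and limited to bases outside annotated exons. In the first group, capitals mark the TGGC and GCCA arms of NFI matches with no more than 1 of the 8 fixed bases changed. *Srp14* is read from chr2:118510505-118510677 (minus strand), distal *Sec61a2* from chr2:5906214-5906386 (minus strand), *Sar1b* from chr11:51781624-51781796 (plus strand) and the start of *Sec61a2* from chr2:5895433-5895463 (minus strand).
Srp14, peak at -30895 bp: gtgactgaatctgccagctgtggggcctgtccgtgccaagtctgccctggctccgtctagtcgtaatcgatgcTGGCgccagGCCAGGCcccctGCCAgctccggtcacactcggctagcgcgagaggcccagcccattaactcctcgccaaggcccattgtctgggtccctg
Sec61a2, peak at -10868 bp: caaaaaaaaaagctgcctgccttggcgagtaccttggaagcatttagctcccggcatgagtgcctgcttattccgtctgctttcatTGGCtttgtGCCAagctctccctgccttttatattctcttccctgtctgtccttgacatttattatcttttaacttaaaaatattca
Sar1b, peak at 18047 bp: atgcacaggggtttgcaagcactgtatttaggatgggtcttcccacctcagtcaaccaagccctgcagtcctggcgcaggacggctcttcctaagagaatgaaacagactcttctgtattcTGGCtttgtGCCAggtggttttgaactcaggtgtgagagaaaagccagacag
Sec61a2, peak at -31 bp: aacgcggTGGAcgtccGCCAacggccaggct

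The *Srp14* stretch held a match with no mismatch and, overlapping its last base, a second match with 1 mismatch. The distal *Sec61a2* and the *Sar1b* peaks, on different chromosomes, held the same 13 bases, TGGCTTTGTGCCA, again with no mismatch. The match at the *Sec61a2* start had 1 mismatch and lay within the last 31 bases before the gene.

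The second group shows stretches without a full NFI match. In the *Sec24b* peak, read from chr3:130086768-130086940 (minus strand), capitals mark 3 copies of the single-arm NFI motif TTGGCA or its complement. In *Kdelr3*, read from chr15:79516292-79516407 (plus strand), they mark the unfolded protein response element (UPRE) TGACGTGG, here as its complement, a motif known to be bound by XBP1 and ATF6. In *Sec61b*, chr4:47474553-47474660 (plus strand), and *Sec16a*, chr2:26445292-26445390 (minus strand), they mark the GC box GGGCGG, a motif of SP and KLF factors.
Sec24b, peak at -25947 bp: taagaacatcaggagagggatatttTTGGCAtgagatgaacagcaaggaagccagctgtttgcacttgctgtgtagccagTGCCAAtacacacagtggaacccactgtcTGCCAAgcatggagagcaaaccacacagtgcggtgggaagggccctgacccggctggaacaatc
Kdelr3, peak at -30 bp: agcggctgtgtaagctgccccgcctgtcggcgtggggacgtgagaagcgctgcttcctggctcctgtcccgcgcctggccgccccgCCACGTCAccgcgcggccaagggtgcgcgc
Sec61b, peak at -22 bp: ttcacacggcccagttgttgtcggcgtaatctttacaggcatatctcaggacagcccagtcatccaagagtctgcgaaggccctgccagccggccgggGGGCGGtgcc
Sec16a, peak at -88 bp: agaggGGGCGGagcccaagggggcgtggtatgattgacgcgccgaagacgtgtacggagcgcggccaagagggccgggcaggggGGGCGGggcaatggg

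Because the *Sec24d* and *Sec23a* peaks have little sequence outside annotated exons, predicted ones included, only short sites are given for them. The *Sec24d* peak window held both a full NFI match with no mismatch, chr3:123267844-123267872 (plus strand), and a UPRE, chr3:123267914-123267939 (plus strand). The *Sec23a* window held a UPRE, chr12:59011995-59012020 (minus strand). Capitals mark the motif.
Sec24d, NFI site: gtgccaagTGGCTCTCTGCCAtgtcgccg
Sec24d, UPRE: gaggaagttTGACGTGGcagagaagg
Sec23a, UPRE: cctccccttTGACGTGGcagaggcgg

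At least 1 peak was assigned to 20 of the 45 genes (44.4%, interval 30.9 to 58.8), compared with a background of 37.2% over all 21000 protein-coding genes of the annotation. The share was thus near the background. A peak centred in the 1000 bp before the transcription start site (TSS) was found at *Sec61a2*, *Sec61b*, *Sec16a*, *Sec31a* and *Kdelr3*, that is, at 5 genes (11.1%, interval 4.84 to 23.5), against a background of 10.7%. When the window was extended to 1000 bp on both sides, *Sec23a*, *Sec24d* and *Arcn1* were added. The count of 8 genes (17.8%, interval 9.29 to 31.3) again lay beside a background of 18.1%. Counting any peak near a RefSeq TSS, whichever gene it was assigned to, left the same 8 genes, with a background of 20.4%. The list as a whole was therefore occupied at gene starts about as often as other protein-coding genes, and the interval leaves room for a share up to 31.3%. The genes just outside the wider window were *Srpr*, with a peak at 1094 bp, and *Srp72*, with a peak at 1241 bp.

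**Figure D1:**
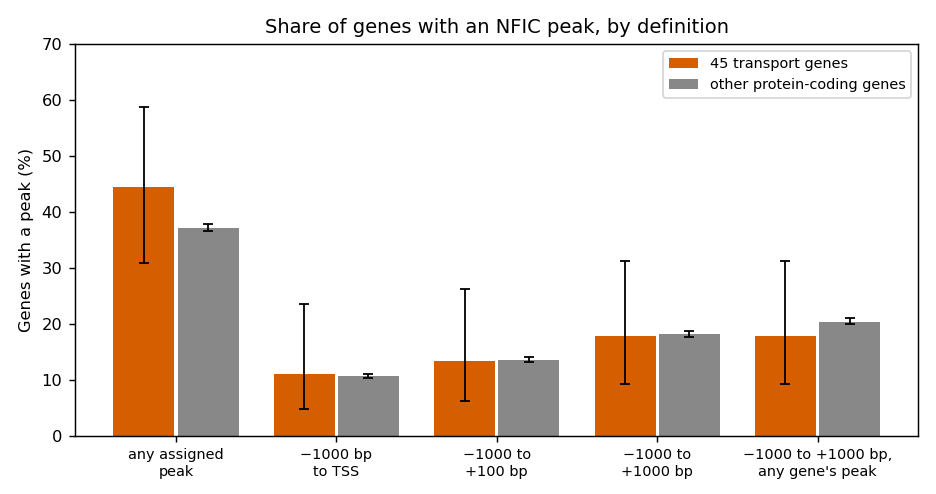
Share of the 45 transport genes (orange) and of the other protein-coding genes (grey) with an NFIC peak, in percent, under 5 definitions of a bound gene; bars start at 0 and the lines are 95% Wilson intervals. The grey value lies inside the orange interval in every definition, from 44.4% against 37.2% for any peak to 11.1% against 10.7% for the 1000 bp before the TSS.

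By step of the pathway, the counts are read against the background of 37.2% of protein-coding genes with an assigned peak. Peaks were assigned to 4 of 6 Sec61 translocon genes (66.7%, interval 30.0 to 90.3), 8 of 12 COPII genes (66.7%, interval 39.1 to 86.2) and 3 of 5 cargo and KDEL receptor genes (60.0%, interval 23.1 to 88.2). The SRP and its receptor, with 3 of 8 genes (37.5%, interval 13.7 to 69.4), were at the background. A peak was assigned to 1 of 4 genes of the translocon-associated protein (TRAP) complex (25.0%, interval 4.56 to 69.9), 1 of 7 COPI genes (14.3%, interval 2.57 to 51.3) and 0 of 3 signal peptidase genes (up to 56.1%). The groups are small, all intervals but that of COPII include the background, and no test between groups was made. All 8 genes with a peak within 1000 bp of the TSS belonged to the translocon (2), the COPII coat (4), the COPI coat (1) or the receptors (1).

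Among the channel subunits, the peaks fell on *Sec61a2* and *Sec61b* and not on *Sec61a1*. *Sec61a1* and *Sec61a2* encode alternative forms of the pore-forming alpha subunit, and *Sec61b* and *Sec61g* its small partners. *Sec61a2* had a peak in its promoter (chr2:5895377-5895549, centre at -31 bp, score 14.3) and a second at -10868 bp (chr2:5906214-5906386, score 7.77), which lies in intron 12 of 16 of the neighbouring *Dhtkd1*. The peak score is the authors' own value for the strength of a peak, on a scale with no stated unit, and its median in the whole list was 6.57. *Sec61b* had a single peak at -22 bp (chr4:47474553-47474725, score 7.57), which the list annotated as the promoter of *Alg2*, a mannosyltransferase of N-glycan assembly whose start lies on the other side. The centre of that peak lay at -272 bp from the *Alg2* TSS, so the peak is shared by both starts, and *Sec61b* was the only gene of the 8 with another gene's TSS within 1000 bp of its peak. *Sec61a1* had no assigned peak, and the nearest, assigned to *Ruvbl1*, lay 27941 bp from its TSS. For *Sec61g* the nearest peak was 244110 bp away, the largest distance of the 45 genes.

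*Sec62* and *Sec63*, which assist the channel in post-translational import, had peaks away from their starts. *Sec62* had an intergenic peak at -19998 bp (chr3:30772792-30772964, score 9.36) and a weaker one in intron 5 of 8 (chr3:30811486-30811658, 18696 bp, score 4.98). The *Sec63* peak was intergenic at -6945 bp, with a score of 7.17. Of the TRAP subunits, which bind next to the channel, *Ssr2* had a peak at 11645 bp, beyond the end of the gene, with a score of 6.57. *Ssr1*, *Ssr3* and *Ssr4* had none, and neither did the signal peptidase subunits *Spcs1*, *Spcs2* and *Spcs3*, whose nearest peaks were 45303 to 80584 bp away.

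In the targeting step, the most prominent value of the whole set belonged to *Srp14*, whose product forms with SRP9 the part of the particle that slows elongation. Its intergenic peak at -30895 bp (chr2:118510505-118510677) had a score of 37.4 and ranked 8 of the 15824 peaks. No TSS of another gene lay between this peak and *Srp14*, and 5 other peaks lay within 50 kb of it. The nearest TSS of another protein-coding gene was that of *Bmf*, 37008 bp from the peak and thus little farther than that of *Srp14*. A second *Srp14* peak at -10611 bp (chr2:118490221-118490393) scored 9.56. Neither was near the *Srp14* start, and assignment to *Srp14* rests on distance alone. *Srpr*, the alpha subunit of the SRP receptor, had a peak in intron 2 of 13 with a score of 6.17, and *Srp72* one in intron 1 of 18 with a score of 4.58, the lowest of the 25. *Srp9*, *Srp19*, *Srp54a*, *Srp68* and *Srprb* had none. *Srp54a*, which encodes the signal-binding subunit, has near-identical copies in the mouse genome, where reads may not map uniquely, so its lack of a peak is uncertain.

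The COPII coat, the largest group, had 9 peaks at 8 of its 12 genes. *Sec16a* and *Sec31a* had promoter peaks. *Sec16a*, which organises ER exit sites, carried its peak at -88 bp (chr2:26445218-26445390, score 7.97). *Sec31a*, of the outer cage, carried its peak at -197 bp (chr5:100416345-100416517, score 9.56), plus an intronic peak at 40007 bp (chr5:100369876-100370048, score 7.57). Inside the gene but close to the start lay the peaks of *Sec23a* at 89 bp (chr12:59011842-59012014, score 7.97) and *Sec24d* at 357 bp (chr3:123267767-123267939, score 10.4). SEC23 and SEC24 form the inner coat, where SEC24 selects cargo. These 4 of 12 COPII genes had a peak within 1000 bp of the TSS, beside a background of 18.1%, and no test was made.

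The remaining COPII peaks were distal. *Sec24b* had an intergenic peak at -25947 bp (chr3:130086768-130086940) and *Sec13*, the partner of SEC31, a peak at -21152 bp (chr6:113761747-113761919). Both scored 16.5, above 95.6% of all peaks. The *Sec13* peak lies in intron 15 of 19 of *Atp2b2*, a plasma membrane calcium pump. *Sec16b* had a peak in its own intron 2 of 27 with a score of 10.8, and *Sar1b*, the GTPase that starts coat assembly, a peak in intron 3 of 6 with a score of 5.58. *Sar1a*, *Sec23b*, *Sec24a* and *Sec24c* had none. By assignment the paralogues were split in the Sar1, Sec23 and Sec24 families, with a peak for *Sar1b*, *Sec23a*, *Sec24b* and *Sec24d*. Over all protein-coding genes 37.2% have an assigned peak, and the split was not compared with that of other gene families. The split also rests partly on distal peaks. Those of *Sar1b* and *Sec24b* lay at 18047 and -25947 bp, whereas a peak assigned to *Rbbp9* lay 9096 bp from the *Sec23b* start.

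Of the 7 COPI subunits, only *Arcn1*, which encodes delta-COP, had a peak, at 278 bp in intron 1 (chr9:44767444-44767616) with a score of 5.38. *Copa*, *Copb1*, *Copb2*, *Cope*, *Copg1* and *Copz1* had no assigned peak, and the nearest peaks to their starts were 13025 to 55031 bp away. An assigned peak was thus present for 1 of 7 COPI genes (14.3%, interval 2.57 to 51.3). For COPII it was 8 of 12 genes (66.7%, interval 39.1 to 86.2), and the background was 37.2%. The intervals of the coats overlap, part of the COPII assignments are distal, and the difference was not tested.

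Among the receptors, *Kdelr3* carried a pair of strong peaks. The KDEL receptors retrieve ER chaperones. The *Kdelr3* promoter peak at -30 bp (chr15:79516292-79516464) scored 13.3, and a CpG island peak at -4817 bp (chr15:79511505-79511677) scored 16.5, above 91.0% and 95.6% of all peaks. The peak at -4817 bp lies within the RefSeq span of the neighbouring *Kcnj4*, at -6350 bp from its TSS. Its assignment to *Kdelr3* rests on distance alone. *Kdelr2* had a peak in intron 1 of 4 (6868 bp, score 7.57). *Kdelr1* had none, although a peak assigned to *Grin2d* lay 6677 bp from its start. *Lman1*, a lectin that carries glycoproteins out of the ER, was the gene named for a peak at -72789 bp in an intron of *Ccbe1* (score 5.18), the farthest assignment of the 25. *Surf4*, another cargo receptor, had no assigned peak, and the nearest, 11545 bp from its start, was assigned to *Surf1*.

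**Figure D2:**
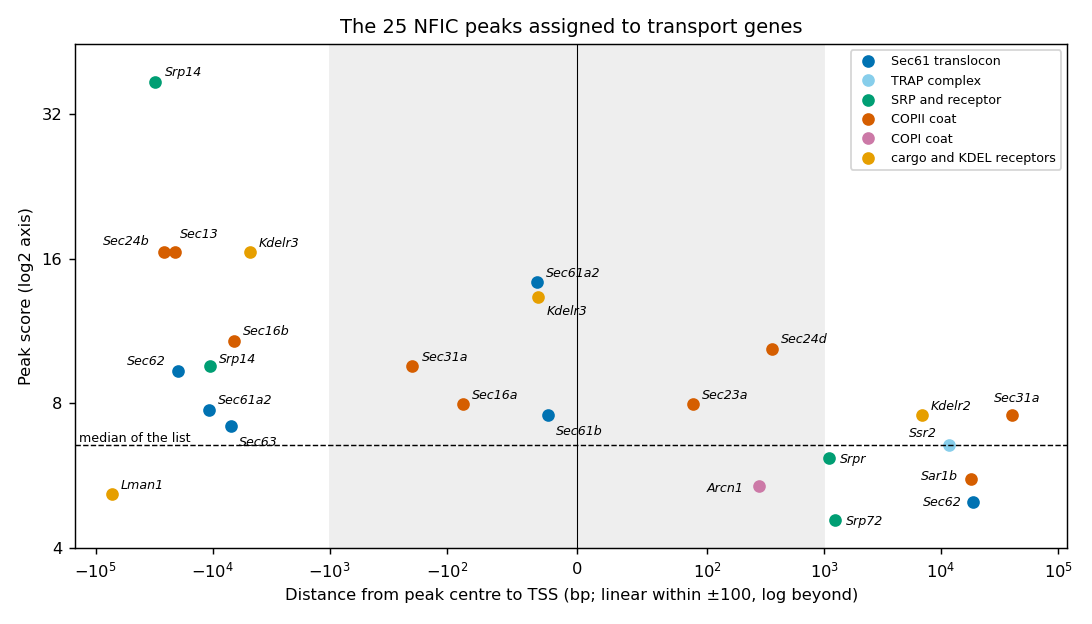
Score of each of the 25 peaks (log2 axis) against the distance of its centre from the TSS of the assigned gene (bp, negative upstream, linear within 100 bp and logarithmic beyond), coloured by step of the pathway; grey marks 1000 bp on either side of the TSS and the dashed line the median score of the whole list, 6.57. The *Srp14* peak at -30895 bp stands highest at 37.4, and 7 of the 8 peaks in the grey zone lie above the dashed line, with *Arcn1* below it at 5.38.

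The transport peaks were on the strong side of the list. Their median score was 7.97 (binomial interval of the median 7.17 to 10.4, n = 25), with quartiles of 6.57 and 10.8, against a median of 6.57 and quartiles of 4.98 and 9.16 for the 15799 other peaks. Of the 25 peaks, 19 (76.0%, interval 56.6 to 88.5) scored at or above 6.57, against 51.6% of all peaks. A score of 9.16 or more was reached by 11 (44.0%, interval 26.7 to 62.9), against 25.5% of the other peaks. The shift was present for the 8 peaks within 1000 bp of a TSS (median 8.77 against 6.37) and for the 17 beyond (7.57 against 6.57). Among peaks of the promoter class, the 6 transport peaks had a median of 8.77 (range 7.57 to 14.3). The 3264 others had a median of 6.37 (range 3.39 to 54.4). When only peaks at or above the median score were kept, 15 genes (33.3%, interval 21.4 to 47.9) were still bound, compared with 21.8% for protein-coding genes outside the set. In that restricted list all 5 genes with a peak in the 1000 bp before the TSS remained (11.1%, interval 4.84 to 23.5), against 5.55% of the others. The intervals of both shares include the background, and no test was run.

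The peaks were described by position and makeup beside the rest of the list. The authors' annotation put 12 of 25 in introns (48.0% against 40.8% of other peaks), 7 between genes (28.0% against 30.6%) and 6 in the promoter class (24.0% against 20.7%). Exons and gene ends held 0, but other peaks were also rare there (3.21% in exons, 1.83% at transcript ends). A count of 0 of 25 allows a share of up to 13.3%. Upstream positions took 15 of 25 (60.0%, interval 40.7 to 76.6, against 44.5%), and 0 lay beyond 100000 bp, where 7.61% of other peaks lay. A CpG island was the detailed annotation of 3 peaks, those of *Sec24d*, *Arcn1* and *Kdelr3* at -4817 bp (12.0%, interval 4.17 to 30.0, against 3.39%). The focus ratio, the fraction of a peak's tags near its centre, had a median of 0.711 against 0.684. The GC content of the 200-bp windows had a median of 53.5% against 54.0%. Of the 20 bound genes, 15 had 1 peak, 5 had 2 and 0 had 3 or more, whereas 16.9% of the 9066 other genes in the list had 3 or more. The genes with 2 peaks were *Srp14*, *Sec61a2*, *Sec62*, *Sec31a* and *Kdelr3*.

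Of the 25 genes with no assigned peak, 0 had a peak of any gene within 1000 bp of a RefSeq TSS, whereas 13 had at least 1 within 50 kb. The count of 0 follows largely from the assignment of each peak to its nearest TSS. The share within 50 kb was not counted for other genes without an assigned peak. In *Copz1* and *Surf4* a peak assigned to another gene lay inside the gene body. Their nearest peaks were 6677 bp (*Kdelr1*) to 244110 bp (*Sec61g*) away, with a median of 46250 bp, against 75820 bp for the 13168 other protein-coding genes without an assigned peak. Over all 45 genes the median distance to the nearest peak was 21150 bp, against 29620 bp for the others. The lower quartile went the other way, at 6677 bp against 3362 bp. The upper quartile was 50530 bp against 120200 bp, so the set was not closer to peaks throughout. Next to *Kdelr1*, the closest were *Sec23b* at 9096 bp, from a peak assigned to *Rbbp9*, then *Surf4* at 11545 bp and *Copz1* at 13025 bp, from a peak assigned to *Mir148b*. *Sec24a* and *Sar1b* are neighbours, and the peak nearest to the *Sec24a* start, 24876 bp away, was the intronic one assigned to *Sar1b*.

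**Figure D3:**
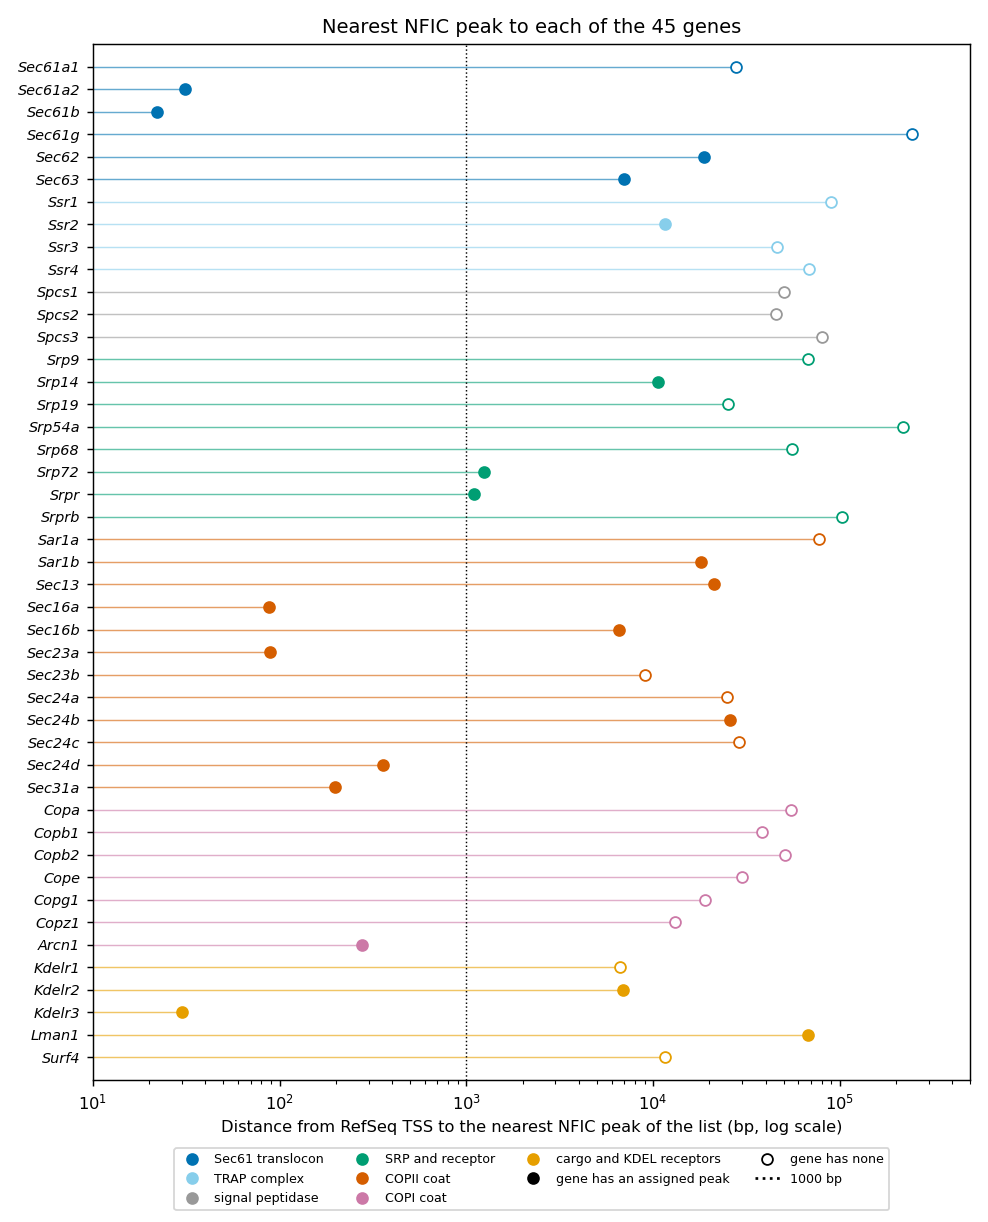
Distance in bp (log scale) from the RefSeq TSS of each of the 45 genes to the nearest NFIC peak of any gene, coloured by step of the pathway, with filled points for genes that have an assigned peak and open points for those without. The 8 points left of the dotted line at 1000 bp are all filled, and every open point lies at 6677 bp or farther. Peaks are assigned to the nearest TSS, so filled points at short distances follow largely from the assignment.

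The motif content of the peaks depended on their distance from a gene start. A full NFI match with up to 1 mismatch was present in the 200-bp window of 14 of 25 peaks (56.0%, interval 37.1 to 73.3), against 51.8% of other peaks, and a match with no mismatch in 4 (16.0% against 13.4%), namely the *Srp14* peak at -30895 bp, *Sec24d*, the distal *Sec61a2* peak and *Sar1b*. Beyond 1000 bp from a TSS, 12 of 17 peaks (70.6%, interval 46.9 to 86.7) held a full match, against 56.7% of the other distal peaks. Within 1000 bp it was 2 of 8, *Sec61a2* and *Sec24d* (25.0%, interval 7.15 to 59.1), against 39.0%. The GC box was the converse, in 6 of the 8 peaks near a start (75.0% against 54.4% of other peaks there) and 0 of the 17 distal ones (against 8.47%). The NF-Y motif CCAAT, present in 23.1% of other peaks near a start, was found in 0 of 8, which allows a share of up to 32.4%. All these values lay within counting error of the other peaks.

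The UPRE was the exception. TGACGTGG was present in the windows of 3 of the 8 peaks near a start, *Kdelr3*, *Sec23a* and *Sec24d* (37.5%, interval 13.7 to 69.4), against 28 of 4327 other such peaks (0.647%, interval 0.448 to 0.934). In the *Kdelr3* window the match lay 3 bp from the peak centre, as printed above, whereas in *Sec24d* and *Sec23a* it lay at 73 and -79 bp from the centre, toward the edge of the 173-bp peak. It was found in 0 of the 17 distal peaks. The count rests on 3 genes, and whether NFIC binding bears on these motifs was not tested. The longer ER stress response element (ERSE), the cyclic AMP response element TGACGTCA and the NR5A2 motif CAAGGTCA were each found in 0 of the 25 windows. In other peaks they were also rare, at 0.00633%, 0.544% and 2.04%. With 25 windows a count of 0 allows a share of up to 13.3%, so no lack of these motifs is shown. An ETS motif, CCGGAAGT, was found in 1 (4.0% against 1.26%) and the E-boxes CAGCTG or CAGATG in 8 (32.0% against 32.5%). Motifs were searched on both strands, and the UPRE and the cyclic AMP response element share the letters TGACGT. The single-arm NFI motif TTGGCA, which overlaps a full site where its arm continues one, was present in 10 of 25 windows (40.0% against 33.7%).

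**Figure D4:**
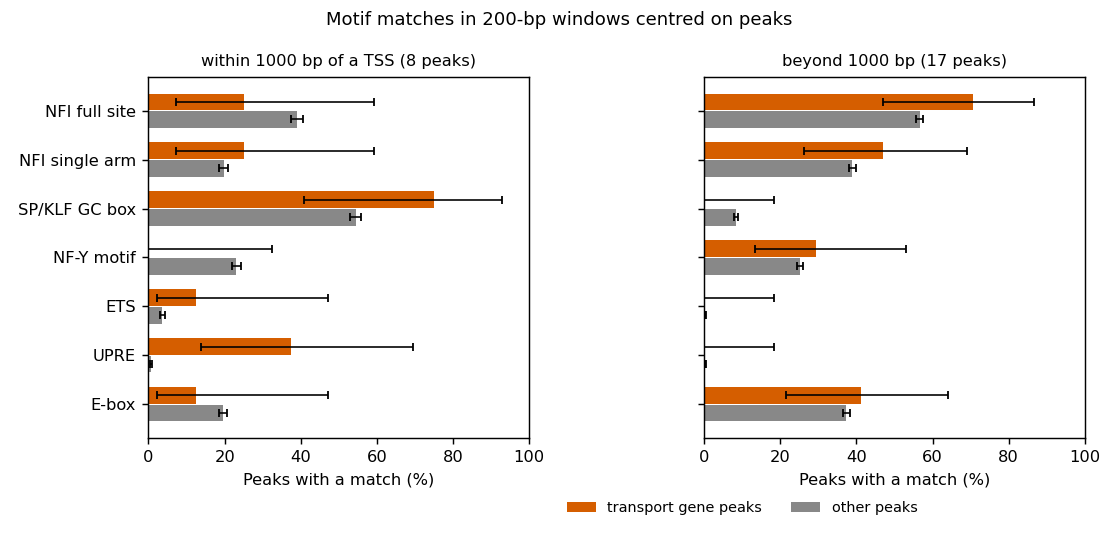
Share of 200-bp peak windows with a match to each motif, in percent with 95% Wilson intervals, for the transport gene peaks (orange) and all other peaks (grey), within 1000 bp of a TSS on the left and beyond on the right. The GC box appears only on the left for the transport genes (75.0% against 0%), the full NFI site is more frequent on the right (70.6% against 25.0%), and the UPRE at 37.5% lies above the 0.647% of other peaks.

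The UPRE was also frequent in the promoters of the set, bound or not. RefSeq promoter sequences, spanning 250 bases before to 50 bases after the start (GRCm38), were given for 37 of the 45 genes, in 40 windows. The UPRE was present in 6 of the 37 genes (16.2%), namely *Sec16b*, *Sec23a*, *Sec24d*, *Copb1*, *Copb2* and *Kdelr3*, against 0.693% of 26988 other genes. By window it was 6 of 40 (15.0%, interval 7.06 to 29.1) against 0.658%. These other genes and windows are not limited to the protein-coding background, whereas all 45 genes of the set are protein-coding. The sites without a peak at the gene start, and the one of *Sec24d* nearest to its TSS, are printed for comparison with those above, with the motif or its complement in capitals: *Sec16b*, chr1:157506743-157506768 (plus strand), *Sec24d*, chr3:123267461-123267486 (plus strand), *Copb1*, chr7:114254692-114254717 (minus strand), and *Copb2*, chr9:98563715-98563740 (plus strand).
Sec16b, at -41 bp: ctgtgtggcTGACGTGGcacggcagt
Sec24d, at -23 bp: ccgggcgccTGACGTGGcactagcaa
Copb1, at -24 bp: cgcccccttCCACGTCAgccaaggac
Copb2, at -4 bp: ccggaagttCCACGTCAgtgggttgg

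All 6 promoter matches lay within 41 bp of the start. Of the 6 genes that hold the motif, 3 had a peak within 1000 bp (50.0%, interval 18.8 to 81.2), against 4 of the 31 that lack it (12.9%, interval 5.13 to 28.9). Among other protein-coding genes with a promoter sequence, the shares were 39 of 136 with the motif (28.7%, interval 21.7 to 36.8) and 3088 of 16680 without (18.5%, interval 17.9 to 19.1). The 3 transport genes with both motif and peak are *Kdelr3*, *Sec23a* and *Sec24d*, the same genes whose peak windows held the UPRE above. In *Kdelr3* and *Sec23a* the promoter match is the very site counted in the peak window. The 3 of 6 thus count the same peaks again and are no separate observation. The intervals of the transport genes overlap, and the difference was not tested. *Sec16b* has 2 annotated starts, and the nearest peak of any gene to the start that holds the motif was 11484 bp away. For *Copb1* and *Copb2* it was 38139 and 50530 bp away. In the same 37 genes the GC box was present in 26 (70.3% against 38.2%), the ETS motif in 5 (*Sar1a*, *Sec13*, *Sec24c*, *Sec31a* and *Copb2*, 13.5% against 4.29%) and a full NFI match in 3 (*Sec61a2*, *Spcs1* and *Sec31a*, 8.11% against 17.2%). By window, the GC box was in 26 of 40 (65.0%, interval 49.5 to 77.9, against 35.6%), and the full NFI match in 3 of 40 (7.5%, interval 2.58 to 19.9), an interval that includes the 15.4% of other windows. The E-boxes were in 5 of 40 windows (12.5%, interval 5.46 to 26.1, against 30.6%), those of *Ssr1*, *Srp9*, *Sec16b*, *Sec24a* and *Copz1*. ERSE was found in 0 (against 0.119% of other windows). The other genes and windows in these motif shares again include genes outside the protein-coding background. A comparison with protein-coding promoters alone was not made for these motifs.

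Other genes of the same pathway were listed by their function, and comprised 71 genes for translocon partners, protein insertion, N-glycan transfer, ER exit, cargo receptors and ARF regulators. Peaks were assigned to 29 of them (40.8%, interval 30.2 to 52.5, background 37.2%), 14 had a peak in the 1000 bp before the TSS (19.7%, interval 12.1 to 30.4, background 10.7%) and 22 within 1000 bp on either side (31.0%, interval 21.4 to 42.5, background 18.1%). Cargo receptors had 5 of 14 in the narrow window, *Mcfd2*, the partner of LMAN1, and the p24 family genes *Tmed1*, *Tmed2*, *Tmed5* and *Tmed10*. Narrow-window counts were 3 of 10 for ER exit, 3 of 10 for ARF and COPI and 2 of 5 for translocon partners. They were 1 of 16 for protein insertion, 0 of 12 for oligosaccharyltransferase and 0 of 4 for SRP and signal peptidase. The lists were chosen with earlier results of these data known, and no test was run. The COPI regulators *Arf4*, *Arfgap1* and *Arfgap2* had promoter peaks with scores of 7.97, 7.37 and 9.76, next to a coat in which only *Arcn1* had a peak. Of the oligosaccharyltransferase genes, which attach N-glycans at the translocon, 4 of 12 (*Rpn1*, *Rpn2*, *Ddost* and *Ostc*) had a peak just inside the start. At ER exit, *Mia2*, *Mia3* and *Stx5a* had promoter peaks with scores of 4.18 to 4.78, below those of the 5 transport genes with a promoter peak (7.57 to 14.3).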

How the data were processed

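ChIP-Seq with an antibody to NFIC was performed on wild-type mouse pancreas (3 libraries, with 1 library of input DNA). The submitters' processing notes name BWA, Picard and MACS2 and the build mm10, with no versions, and the file header names HOMER. The methods give HOMER for merging and annotation of peaks in general. Thresholds and depth are not given in the sources used here. The deposited peak score is the authors' own, on an unnamed scale, and the focus ratio is a fraction of tags as the authors deposited it. The list had 0 columns with values of a single sample, so peaks cannot be compared between libraries.

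Peaks were taken by assigned gene. The genes, lists, motifs and comparisons were chosen with earlier results of these data known, so no test was run over the set. Other protein-coding genes with a curated RefSeq transcript of GRCm38.p6 served as background, matched by Entrez identifier. Distances are those of the authors, from the peak centre, and equalled those from RefSeq within 1 bp for 25 of 25 peaks. Motifs were matched as fixed letters in windows of 200 bp, the NFI palindrome with at most 1 mismatch in 8 fixed bases. Intervals are Wilson intervals at 95%, and the counting code was tested on simulated data. All 45 genes are named. Positions are given for peaks within 1000 bp of the TSS and for the 5 genes with the highest score or the most peaks. Genes outside the set were named where a result turns on them or, in the pathway lists, for a peak near the start, after their values were seen. Python 3.11, numpy 2.4.6, pandas 2.3.3, pysam 0.24.0 and matplotlib 3.10.9 were used. Alternatives were another score threshold, assignment, promoter window, mismatch limit and motif window.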

Additional observations from a re-analysis of the deposited data

How the results depend on the processing

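Counts over 45 genes and 25 peaks have wide intervals, and depth, replicate spread and the peak threshold are unknown, so a gene without a peak was not detected as bound in this list and is not shown to be unbound. Of the alternatives, 3 moved a value by more than its counting error or over 1.5 times. Requiring a RefSeq TSS within 5000 bp left 10 genes with a peak (22.2%, interval 12.5 to 36.3), against 27.4% of other genes. The share of the set then lay below that of the others, whereas for any assigned peak it lay above (44.4% against 37.2%). The window of 1000 bp on either side raised promoter peaks to 8 genes (background 18.1%). Allowing no mismatch lowered the NFI share of peaks to 16.0% (13.4% of others). The cause of each shift is the stricter or wider definition itself. Keeping the stronger peaks left 15 bound genes, merging peaks within 500 bp left 25 peaks, and leaving out *Srp54a* left 20 bound genes. No paired analysis was possible because the list has no values per library and there is no second group with the same replicate numbers, and no replicate could be left out.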
